A study of Homo sapiens with 15 samples.

Results

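The 300 transcript end regions with the highest labelled share were described here, out of 68625 regions counted near annotated transcript ends in U2OS cells, a human osteosarcoma line. The labelled share of a region is the percentage of its reads that carry a T>C conversion, the mark left by 4-thiouridine. A region was eligible if it had at least 1000 reads over the 12 alkylated libraries, at least 50 reads over the 3 unalkylated libraries and an unalkylated labelled share under 2%. Of the 11247 eligible regions, the 300 with the highest mean over 4 cell cycle phases of the share of pooled reads were taken, which is 2.67% of the eligible regions, so they were chosen by their labelled share. They belong to 293 genes.

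Growing U2OS cells were given 4-thiouridine, which is taken up into new transcripts in place of uridine, and EdU, which is built into replicating DNA, for 45 minutes. Cells were fixed with glyoxal and methanol and sorted by EdU and DNA content into G1, Early_S, Late_S and G2 (G2/M in the protocol), each with 3 libraries. RNA was alkylated so that 4-thiouridine is read as C, and 500 ng went into libraries of polyadenylated RNA ends made with a QuantSeq kit. The 3 No_alk libraries lacked the alkylation. The series title speaks of synchronised cells, whereas the protocol describes asynchronous cells that were sorted. The source of the cells in the No_alk libraries is not stated, nor whether libraries of a group came from separate cultures, so p-values measure only the spread between these libraries.

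The labelled share after a short pulse depends on how fast a transcript turns over. In a steady state, a short-lived mRNA is soon replaced by new molecules, so most of its reads carry conversions, while a stable mRNA keeps mostly unlabelled molecules made before the pulse. Known short-lived mRNAs include immediate early transcription factors such as JUN, feedback inhibitors of growth factor signalling such as the DUSP phosphatases and Sprouty proteins, and many zinc finger regulators.

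No genome sequence of the build was used, so the regions themselves are not printed. RefSeq promoter sequences (GRCh38.p14, 250 bases before to 50 after the gene start) matched 224 of the 293 genes. The cAMP response element TGACGTCA, a palindrome and so the same on both strands, was in 15 of these 224 windows (6.70%), in 269 of the 7441 windows of other eligible genes (3.62%) and in 1.85% of all 35116 windows in the table. Among the 85 matched genes with a region called higher in G1 than in G2, which is the main change described further on, 6 windows held it (7.06%). The 250 bases before the start are shown for the 5 of these genes that hold the element there, 5′ to 3′ on the gene's strand, with the element in capitals.
DUSP1: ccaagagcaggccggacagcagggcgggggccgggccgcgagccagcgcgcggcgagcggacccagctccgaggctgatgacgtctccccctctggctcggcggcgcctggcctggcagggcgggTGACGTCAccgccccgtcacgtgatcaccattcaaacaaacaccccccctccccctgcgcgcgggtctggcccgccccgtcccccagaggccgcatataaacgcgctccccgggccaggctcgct
ZNF200: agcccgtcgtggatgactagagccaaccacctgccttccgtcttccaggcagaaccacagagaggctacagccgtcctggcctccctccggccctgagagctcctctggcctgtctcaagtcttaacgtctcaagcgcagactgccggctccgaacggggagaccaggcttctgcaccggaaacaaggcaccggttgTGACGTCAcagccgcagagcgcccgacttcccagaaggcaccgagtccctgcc
ZNF561: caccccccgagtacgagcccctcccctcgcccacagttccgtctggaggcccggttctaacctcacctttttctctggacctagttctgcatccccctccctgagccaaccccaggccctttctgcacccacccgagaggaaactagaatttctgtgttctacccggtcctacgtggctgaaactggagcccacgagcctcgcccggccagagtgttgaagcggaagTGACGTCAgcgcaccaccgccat
DDX28: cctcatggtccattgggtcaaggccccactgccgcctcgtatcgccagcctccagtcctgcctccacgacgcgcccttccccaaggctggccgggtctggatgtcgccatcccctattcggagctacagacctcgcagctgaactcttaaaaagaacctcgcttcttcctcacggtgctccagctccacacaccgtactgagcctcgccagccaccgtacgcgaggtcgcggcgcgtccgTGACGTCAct
MAFF: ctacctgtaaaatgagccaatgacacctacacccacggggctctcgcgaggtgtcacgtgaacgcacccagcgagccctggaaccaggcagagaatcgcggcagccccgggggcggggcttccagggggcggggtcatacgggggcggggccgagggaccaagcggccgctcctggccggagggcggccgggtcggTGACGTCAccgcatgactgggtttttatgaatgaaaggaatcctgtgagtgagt

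These windows lie at chr5:172771196-172771445 on the minus strand for DUSP1, a phosphatase that switches off MAP kinases, and at chr16:3235159-3235408 on the minus strand for the zinc finger gene ZNF200. The windows of ZNF561, also a zinc finger gene, and of DDX28, a mitochondrial RNA helicase, lie on the minus strand at chr19:9621233-9621482 and chr16:68023233-68023482. That of MAFF, a small Maf transcription factor, is at chr22:38201744-38201993 on the plus strand. The element starts 125 bases before the gene start in DUSP1, 53 in ZNF200, 23 in ZNF561, 10 in DDX28 and 54 in MAFF. Other motifs were also searched on both strands: CCAAT was in 41.5% of windows against 36.5% in the other eligible genes, TATAAA in 7.59% against 4.86%, the AP-1 motif TGACTCA in 4.02% against 2.94%, TTTGAA in 12.1% against 9.21%, CACGTG in 11.2% against 10.8% and GGGCGG in 69.2% against 73.1%. Among all 35116 windows, TATAAA (11.5%), TGACTCA (4.95%) and TTTGAA (15.2%) were more frequent than in the windows of the matched genes. CCAAT (34.6%), CACGTG (7.26%) and GGGCGG (45.0%) were less frequent among all windows. A match describes letters in a window and not a bound site, and none of these shares was tested.

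The 15 libraries held 16096695 to 21803972 reads in the regions. T>C reads were 21.5% to 22.8% of reads in G1, 17.9% to 18.9% in Early_S, 9.95% to 10.1% in Late_S, 9.77% to 10.4% in G2 and 1.00% to 1.03% in No_alk. All pairs of libraries of a group differed by more than sampling noise, with a mean chi-square per region of 11.7 to 22.0. Of 10 mesenchymal and osteosarcoma marker genes 9 reached 1 CPM (summed level 6307 to 8421 CPM), against 4 of 7 epithelial markers (18.98 to 48.99 CPM) and 1 of 7 blood markers, CD68 (0.817 to 4.88 CPM), with 1 blood marker at 0 in all libraries.

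The mean labelled share of the 300 regions ran from 69.4% to 97.1%. These shares chose the regions and are given as a description. DUSP1 (chr5:172768090-172768761, minus strand, hg38) had the highest value, 97.1%. It was followed by CLK1, a kinase of splicing factors, at 95.5%, TXNIP, an inhibitor of thioredoxin, at 94.4%, SPRY2, a Sprouty inhibitor of receptor kinase signalling, at 94.2%, and PPP1R3C, a glycogen-targeting phosphatase subunit, at 94.2%. The zinc finger genes ZNF184 (93.5%) and ZBTB6 (93.0%) and the ubiquitin and SUMO ligase TOPORS (93.3%) were also among the first 10. At the limit of 300, the last regions taken were in RSRC2 (69.4181%), POLG2 (69.3772%) and RSRC2 again (69.3597%), and the next regions left out were in CREBZF (69.2144%), ABL2 (69.1924%) and SIAH2 (69.1855%), so the limit falls in a continuous range.

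In DUSP1 the share was 93.0%, 98.3% and 95.1% in the G1 libraries, 98.8%, 98.8% and 97.0% in Early_S, 95.7%, 98.3% and 97.4% in Late_S and 96.4%, 99.3% and 96.2% in G2. Nearly every DUSP1 read was thus labelled in every phase, and without alkylation the share was 0%, 0.325% and 0%. JUN, the AP-1 subunit (chr1:58780788-58782074, minus strand), ranked 52 with 85.8%, 86.6% and 85.5% in G1 and 84.9%, 82.1% and 85.4% in G2. Its No_alk shares of 1.51%, 0.677% and 1.35% lay far below.

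The median share of the 300 regions was 84.5% in G1, 89.6% in Early_S, 74.5% for Late_S and 72.9% for G2, against 0.398% in No_alk. The median of their SD over 3 libraries was 4.61, 4.28, 6.97 and 9.02 percentage points in the same order of phases. In the other 10947 eligible regions the medians were 24.4%, 18.7%, 9.17%, 8.82% and 0.418%. The median ratio of the Late_S to the G1 share was 0.417 in the other regions and 0.900 in the 300. Since the mean that chose the 300 includes Late_S and G2, a high share in these phases was favoured by the choice, and nothing is read from this difference or from the phase of the highest share. Within the 300 the ratio was 1.00 in the first 50 and 0.757 in the last 50.

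The share of 222 of the 300 regions was highest in Early_S, of 49 in G1, of 18 in Late_S and of 11 in G2. Other eligible regions were mostly highest in G1 (7599) or Early_S (3065), and rarely in Late_S (154) or G2 (129). A Late_S share at least as high as that in G1 was found in 66 of the 300 regions (22.0%), in 26 of the first 50 and in 388 of the others (3.54%). The share stayed above 80% in all 4 phases in 62 regions. It stayed above 50% in 286, as it did in 110 other eligible regions.

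**Figure D1:**
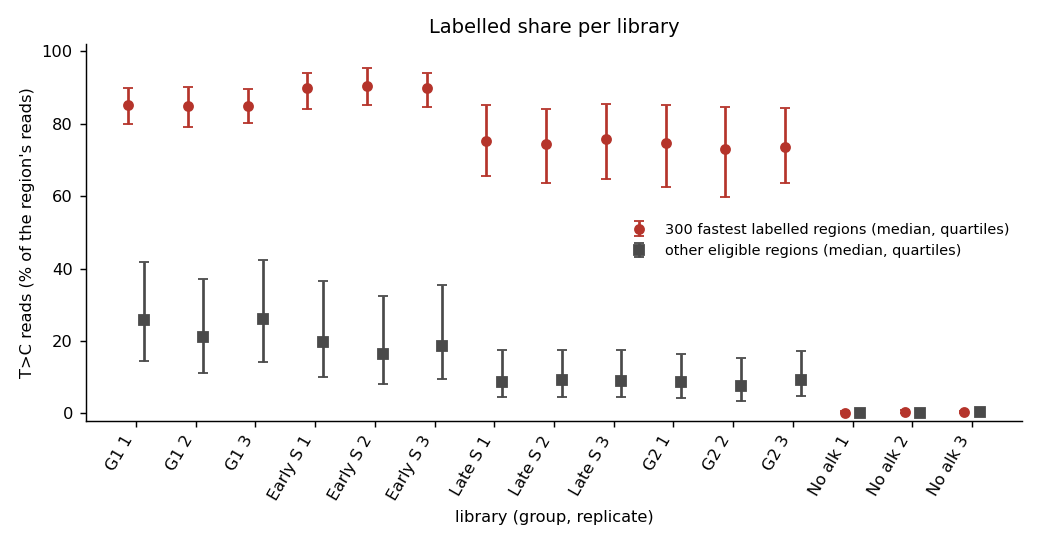
Labelled share (T>C reads as a percentage of a region's reads, vertical axis) in each of the 15 libraries, as the median (point) and the range from the 25th to the 75th percentile (bars) of the 300 fastest labelled regions and of the other eligible regions. The medians of the 300 regions lie between 73.0% and 90.5% in the alkylated libraries and at or under 0.280% in the 3 No_alk libraries, and the other regions lie below them in each alkylated library.

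The fastest labelled regions were longer, with a median of 1655 bases against 1104 in the other eligible regions. Their T content was 31.9% against 28.6%, and each read covered a median of 21.1 T positions against 18.8, so that a read had more chances of a conversion. The conversion rate per covered T position, which does not grow with the number of T positions, had a median of 10.9% against 1.79%. This rate and the number of T>C reads rest on the conversions that chose the regions, so their differences were favoured by the choice. The part of T content in the choice was not tested. The 300 regions had fewer reads (median 3260.5 against 6087 over the 12 libraries) but more T>C reads (2624 against 1032). Their genes spanned a median of 18.7 kb in RefSeq (289 genes matched) against 31.2 kb, and 288 of the 293 genes were protein coding (98.3%, against 96.9% of eligible genes). The median share of multimapped reads was 0.1995% against 0.2047%. Over 20% of reads were multimapped in 5 of the 300 regions, those of E2F6 (43.6%), F8A3 (67.7%), ZNF322 (91.3%), IER2 (57.5%) and ARF6 (35.7%), whose values may include reads of near-identical copies.

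Of 19 gene lists, signalling-responsive classes had the highest shares of their eligible regions among the 300, against 2.67% of all eligible regions. Of the immediate early and AP-1 list 11 of 25 regions were among them (44.0%), of the MAPK feedback list 9 of 21 (42.9%), of Hippo-YAP targets 7 of 26 (26.9%), of the ID, HES and TGF-beta feedback list 5 of 20, and of the NF-kB feedback and cytokine list 5 of 21 (23.8%). Regulators of gene expression and protein turnover followed. These were developmental transcription factors with 12 of 68 (17.6%), genes with C2H2 zinc finger names with 43 of 283 (15.2%), ubiquitin ligase adaptors with 10 of 68 (14.7%) and mRNA decay factors with 5 of 47 (10.6%).

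Histone genes (2 of 21, 9.52%), G1/S regulators (3 of 32, 9.38%), p53 targets (2 of 24, 8.33%) and clock genes (1 of 12, 8.33%) had few members. Their percentages also lay above that of all eligible regions. The clock region, that of NFIL3, is also in the ID, HES and TGF-beta feedback list. Long noncoding names (3 of 162, 1.85%), G2/M regulators (1 of 86, 1.16%) and cytosolic ribosomal proteins (1 of 118, 0.847%) were under the share of all eligible regions. The long noncoding list goes by the form of the name, clone names included, so it is no count of long noncoding RNAs. Its members were AC104581.1 and regions named jointly with RAPGEF6 and C7orf25. The respiratory chain (95 regions), glycolysis (18) and ATF4 and ER stress (21) lists had 0. In all, 116 of the 300 regions were in at least 1 list and 184 in none. The lists were chosen with earlier results of these data known, so these counts describe the set and were not tested.

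**Figure D2:**
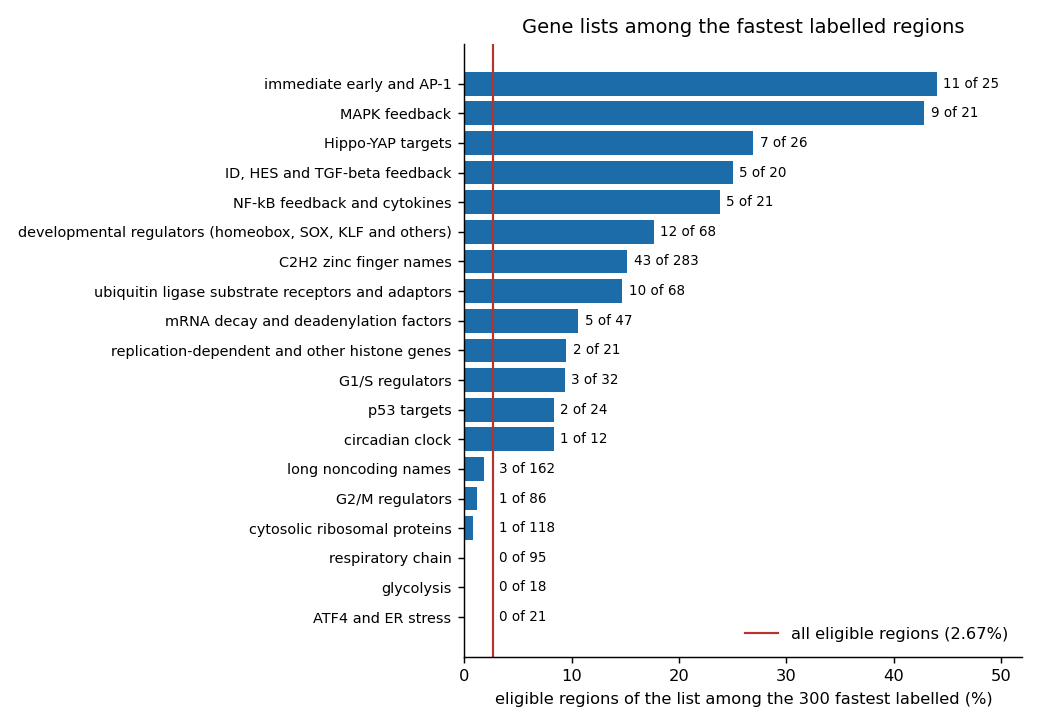
Share of each gene list's eligible regions that are among the 300 fastest labelled (horizontal bars, percent), with the share over all eligible regions, 2.67%, as a vertical line. The immediate early and AP-1 list is highest at 44.0%, and the lists of ribosomal proteins, respiratory chain, glycolysis and ATF4 and ER stress are at 0.847% or 0.

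Among immediate early genes, the regions taken were those of KLF10 (88.2%), IER3 (87.6%), JUN (86.7%), KLF6 (85.7%), MCL1 (85.5%), CSRNP1, FOSL1, IER2 (73.6%), IER5, CYR61 and MAFF. EGR1, the zinc finger immediate early factor, was not: its share was 74.7% in G1 and 71.2% in Early_S but 34.5% in Late_S and 25.03% in G2, giving a mean of 51.3% and rank 779. PLK1, the mitotic kinase, ranked 2509 with a mean share of 29.8%, and the 4 eligible regions of the mitotic cyclin CCNB1 had means of 19.97% to 37.88%. Among the 86 regions of G2/M regulators only KIF18A, a mitotic kinesin, reached the first 300 (69.8%, rank 292). The single ribosomal protein region, of RPS29 (chr14:49570984-49577811, minus strand), had a share of 79.4% against a median of 6.36% in its list.

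Phase changes of the steady-state level, that is of all reads of a region as CPM (reads scaled to a common library total), were tested over all 22836 regions that passed the filter on low counts, which included the 300 regions. Because most of their reads were T>C reads, the steady-state level of these regions and their level of T>C reads rest largely on the same reads with different scaling. Between phases, 145 of the 300 regions changed (48.3%, against 18.9% of all regions tested and 34.6% of eligible regions, which are covered more deeply than the rest). Of the called regions 122 were highest in G1, 17 had their maximum in Early_S, 5 in G2 and 1 in Late_S. Of all 4312 called regions, 1590 peaked in G1, 1176 in Early_S and 550 in Late_S, with 996 in G2.

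The level was lower in Early_S than in G1 in 65 of the 300 regions and higher in 13 (6.43% lower and 6.32% higher among all regions tested). From Early_S to Late_S, 42 regions fell and 1 rose (background 1.73% lower and 3.52% higher), so both steps went mostly down. Between Late_S and G2 no region of the 300 changed by edgeR (background 0.0175% higher and 0.0131% lower), 38 had an unadjusted p under 0.05, and DESeq2 called 2. In G1 against G2 the level was higher in G1 in 109 regions and lower in 2 (background 5.95% and 5.73%). The median log2 change was -0.35 in Early_S against G1, -0.33 in Late_S against Early_S, 0.06 in G2 against Late_S and 0.57 in G1 against G2. In all eligible regions it was -0.01, 0.01, -0.02 and 0.00.

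A fall was called in both steps in 14 regions and in either step in 93. The mean level fell from G1 to Early_S and again to Late_S in 172 of the 300 regions (57.3%) and in 1783 of 10947 other eligible regions (16.3%). Together the 300 regions took 1.42% ± 0.0359 (SD, n = 3) of all reads in G1, 1.05% ± 0.0154 in Early_S, 0.826% ± 0.0168 for Late_S and 0.862% ± 0.0182 for G2. The No_alk libraries gave them 1.47% ± 0.0198, nearest to G1. Levels are scaled to the reads of a library, so these falls are relative to other transcripts. The amount of a transcript in each cell was not measured. A lower proportion of the RNA, fewer transcripts in each cell and fewer cells expressing a gene cannot be told apart in such bulk samples.

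By rank, the fall into Early_S was called in 25, 16 and 24 of each 100 regions, and it was also called in 26.5% of other eligible regions with a mean share of 40% to 50%. The fall from Early_S to Late_S was called in 20 of the first 100, 12 of the second 100 and 10 of the last 100. It was called in 9.05% of the other regions above 60% and in 1.75% of those at 40% to 50%, where 13.7% rose. Higher levels in G1 than in G2 were called in 47, 26 and 36 of each 100 by rank. In the other eligible regions this percentage was 10.5% below a share of 10%, 7.38% at 10% to 20%, and 24.6% above 60%.

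**Figure D3:**
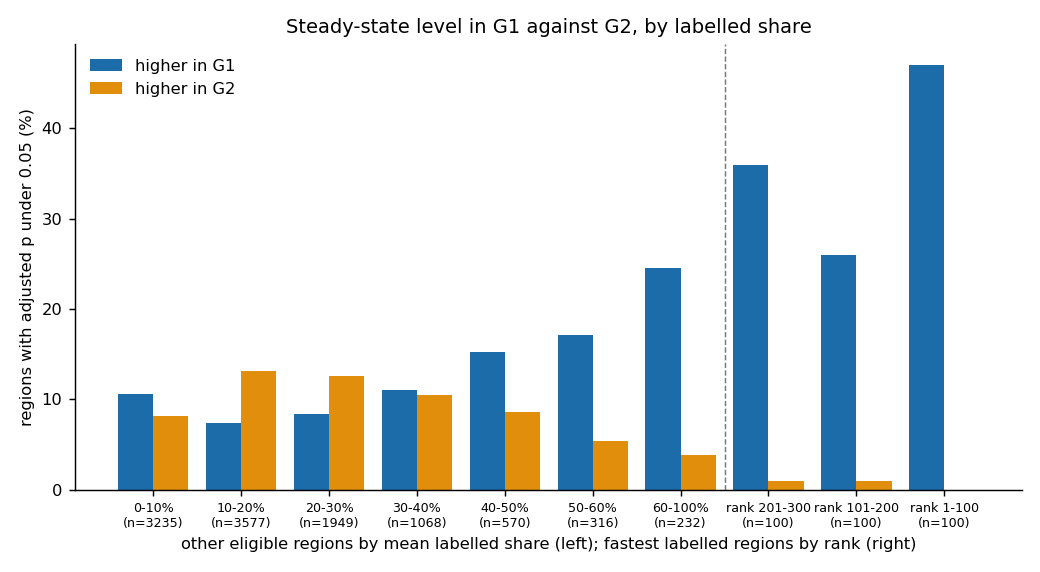
Percentage of regions whose steady-state level was called higher in G1 (blue) or higher in G2 (orange) in G1 against G2, for other eligible regions by mean labelled share (left of the dashed line) and for the 300 fastest labelled regions by rank (right). Calls for G1 reach 47, 26 and 36 of 100 regions in the ranked groups, while calls for G2 number 2 in all of them.

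All 11 regions of the immediate early genes were higher in G1 than in G2, with a median log2 change of 1.54, 10 were lower in Early_S than in G1, and 6 fell into Late_S while 5 were not called. Over all 25 eligible regions of that list, 21 were higher in G1 and 1 lower. The fall of MCL1, an anti-apoptotic BCL2 relative, into Early_S was not called without G1 replicate 3 (adjusted p = 0.0965). JUN had 238, 257 and 267 CPM in G1, 125, 109.6 and 135 in Early_S, 105, 100.6 and 117 in Late_S and 94.8, 76.1 and 92.1 in G2. Every G1 library of JUN lay above every library of the other phases, and the log2 change of G1 over G2 was 1.54 ± 0.11 (SE, adjusted p = 7.75e-13).

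IER3, an immediate early survival factor at chr6:30743199-30744101 on the minus strand, had 650.4, 585 and 639 CPM in G1, 549, 469 and 456 in Early_S, 228, 214 and 217 in Late_S and 181, 188 and 199 in G2. The Late_S libraries lay far below those of Early_S, a step at which JUN was not called. The log2 change was -0.35 ± 0.08 from G1 to Early_S (adjusted p = 0.00209) and -1.16 ± 0.08 from Early_S to Late_S (adjusted p = 5.16e-12), whereas in JUN these were -1.04 ± 0.11 (adjusted p = 6.72e-09) and -0.20 ± 0.10 (adjusted p = 0.351). The difference between both genes was not tested. IER2 had 205 ± 11.96 CPM (SD, n = 3) in G1 against 65.4 ± 2.44 in G2, a log2 change of 1.65 ± 0.11 (adjusted p = 1.45e-13), with the multimapped reads named above. KLF6, a zinc finger immediate early factor, had 74.8 ± 9.50 in G1 and 22.5 ± 2.74 in G2, a log2 change of 1.73 ± 0.17 (adjusted p = 1.78e-09).

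MAPK feedback regions moved both ways at Early_S. Of 9, 7 were higher in G1 than in G2, 6 fell from Early_S to Late_S, but 4 fell and 2 rose from G1 to Early_S. Over all 21 eligible regions of that list, 13 were higher in G1 than in G2 and 1 lower. The calls of PHLDA1 into Early_S (up to adjusted p = 0.0959, without Early_S replicate 3, and 0.0556 without G1 replicate 1) and of the cytokine LIF into Late_S (0.196 without Early_S replicate 3, 0.0539 without Late_S replicate 1 and 0.138 without Late_S replicate 2) ended without 1 library. DUSP1 had 67.2, 76.2 and 55.1 CPM in G1, 42.7, 36.7 and 40.6 in Early_S, 20.1, 27.2 and 21.7 in Late_S and 24.3, 21.8 and 32.1 in G2. It fell in both steps without overlap between neighbouring phases, by 0.73 ± 0.18 (adjusted p = 0.00406) and 0.80 ± 0.18 (adjusted p = 0.00458) on the log2 scale.

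SPRY2 (chr13:80335976-80336757, minus strand) had 10.5, 14.1 and 9.42 CPM in G1, 1.81, 2.001 and 3.86 in Early_S, 1.63, 1.37 and 2.96 in Late_S and 1.84, 4.37 and 2.57 in G2. Its G1 libraries stood above all others, with a log2 change of -2.15 ± 0.52 into Early_S (adjusted p = 0.00429). The region rests on 1030 reads in all, and its call in G1 against G2 ended without G1 replicate 2 (adjusted p = 0.0665) or G2 replicate 1 (adjusted p = 0.0576).

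HBEGF, an EGF receptor ligand at chr5:140332843-140334280 on the minus strand, followed another course. It had 98.9, 86.7 and 106 CPM in G1, 198, 179 and 197 in Early_S, 49.3, 51.04 and 38.91 in Late_S and 56.8, 47.8 and 46.6 in G2. Its Early_S libraries lay above all others, with log2 changes of 0.98 ± 0.12 from G1 to Early_S (adjusted p = 3.48e-07) and -2.04 ± 0.12 from Early_S to Late_S (adjusted p = 2.6e-13).

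In the NF-kB and cytokine list, whose 5 regions are those of 4 genes, 2 regions rose from G1 to Early_S and none fell. All 5 fell from Early_S to Late_S, with LIF as above. Of the rises, that of the shorter region of IRF1, an interferon-regulatory transcription factor, ended without G1 replicate 3 (adjusted p = 0.0696), Early_S replicate 1 (0.0657) or Early_S replicate 2 (0.0774), and that of IL11 did not. Over all 21 eligible regions of that list, 6 rose and 0 fell into Early_S, and 3 rose and 8 fell into Late_S. In G1 against G2, 4 of the 21 were higher in G1 and 7 lower, against 2 higher and 0 lower among the 5. IL11, an interleukin of the IL-6 family (chr19:55364389-55366006, minus strand), had 26.4, 30.7 and 30.7 CPM in G1, 107, 81.8 and 109 in Early_S, 14.5, 19.7 and 14.5 in Late_S and 23.2, 18.4 and 19.5 in G2. The log2 change was 1.76 ± 0.17 into Early_S (adjusted p = 3.17e-09) and -2.61 ± 0.18 into Late_S (adjusted p = 5.06e-12).

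NFKBIA, the inhibitor of NF-kB, had 47.0 ± 4.22, 57.0 ± 5.00, 34.6 ± 4.11 and 34.4 ± 3.02 CPM in G1, Early_S, Late_S and G2, and only the fall into Late_S was called (log2 -0.72 ± 0.15, adjusted p = 0.00292). Outside the list, ENC1, an actin-binding kelch protein, had 2 regions among the 300, and its region at chr5:74634684-74634715 rose by 0.88 ± 0.17 on the log2 scale into Early_S (adjusted p = 0.000326) and fell by 1.19 ± 0.17 into Late_S (adjusted p = 1.2e-05). The second ENC1 region, at chr5:74627406-74629992, fell by 0.89 ± 0.16 into Late_S (adjusted p = 0.000306), and its log2 difference of 0.32 ± 0.16 into Early_S was not called (adjusted p = 0.204).

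Hippo-YAP targets, genes induced by the co-activator YAP, were higher in G1 than in G2 in 7 of 7 regions (median log2 0.87), and 6 fell into Early_S. Over all 26 eligible regions of the list, 10 were higher and 6 lower in G1. The falls of CTGF, DLC1 and F3 ended without 1 library: for CTGF without G1 replicate 2 (adjusted p = 0.0598), for DLC1 without G1 replicate 3 (0.105), Early_S replicate 2 (0.0553) or Early_S replicate 3 (0.125), and for F3 without G1 replicate 1 (0.105), G1 replicate 2 (0.0877), Early_S replicate 1 (0.0869) or Early_S replicate 3 (0.0938). ANKRD1, a cardiac ankyrin repeat protein at chr10:90912096-90912865 on the minus strand, had 1199, 1067 and 1275 CPM in G1, 552, 392 and 543 in Early_S, 406, 372 and 459 in Late_S and 367, 321 and 343 in G2. All G1 libraries lay above 1000, and the libraries of the other phases lay between 321 and 552, with a log2 change of 1.78 ± 0.10 in G1 against G2 (adjusted p = 2.75e-15). AMOTL2, an angiomotin that restrains YAP, changed less, from 294 ± 25.5 CPM in G1 to 218 ± 29.998 in G2 (log2 0.43 ± 0.09, adjusted p = 0.0015).

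**Figure D4:**
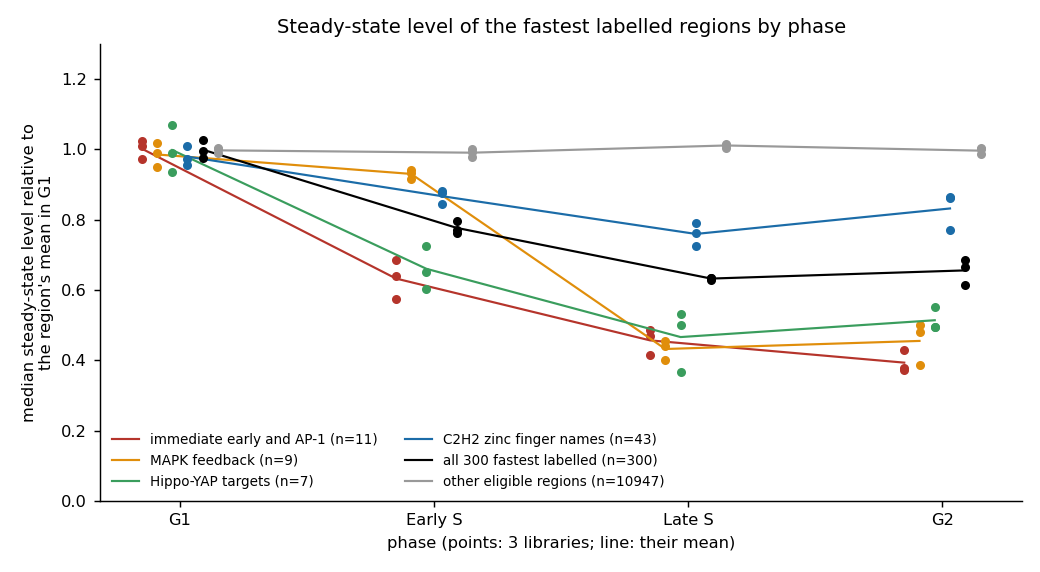
Median steady-state level of groups of the fastest labelled regions in each library (points) and the mean of the 3 libraries (lines), each region relative to its own mean in G1, by phase. The median of all 300 regions was 0.776 for Early_S, 0.632 for Late_S and 0.656 for G2, that of immediate early regions 0.393 in G2, that of C2H2 zinc finger regions 0.832 in G2 and that of other eligible regions 0.996.

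Transcription factors and signalling genes of development were likewise higher in G1 in 7 of 12 regions (median log2 0.89), and 5 of the 12 fell into Early_S while 1 rose. Over all 68 eligible regions of that list, 20 were higher in G1 than in G2 and 4 lower. The G1 call of the homeobox gene HOXB2 ended without G2 replicate 3 (adjusted p = 0.084). SOX9, the HMG-box factor of cartilage at chr17:72124388-72126420 on the plus strand, had 321, 327 and 329 CPM in G1, 182, 191 and 159.6 in Early_S, 105, 103 and 98.6 in Late_S and 106, 113 and 119 in G2. It fell in both steps, by 0.88 ± 0.09 (adjusted p = 1.02e-08) and 0.80 ± 0.09 (adjusted p = 3.67e-07) on the log2 scale, with no overlap. TBX3, a T-box repressor, had 94.2 ± 17.3 in G1 and 28.7 ± 4.86 in Early_S, a log2 change of -1.71 ± 0.18 (adjusted p = 1.74e-08).

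The zinc finger genes were the list with the most regions. In G1 against G2, 6 of 43 were higher in G1 (13.95%, against 5.95% of all regions tested and 10.6% of eligible regions) and 37 were not called, with a median log2 change of 0.15. Their regions had fewer reads (median 2526 against 15698 in the 25 regions of the immediate early, MAPK and Hippo-YAP lists) and larger standard errors (median 0.33 against 0.14 on the log2 scale). Of those 25 regions 23 were higher in G1, with a median log2 change of 0.95. The part of depth in this was not tested. ZNF281, a deeply covered zinc finger repressor at chr1:200404940-200407017 on the minus strand, had 150.0, 149 and 166 CPM in G1, 159, 154 and 192 in Early_S, 154, 145 and 153 in Late_S and 149, 132 and 149 in G2. All its Early_S libraries lay above those of G2, a pair of phases that was not compared directly. In G1 against G2 its log2 difference of 0.11 ± 0.10 was not called (adjusted p = 0.578). ZNF217, with 2246 reads, had 13.6 ± 2.84 CPM in G1 and 8.91 ± 2.66 in G2 (log2 0.61 ± 0.34, adjusted p = 0.289).

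Of the mRNA decay factors, 3 of 5 were higher in G1, and over all 47 eligible regions of that list 8 were higher and 3 lower. ZFP36L1, which binds AU-rich elements and recruits the deadenylase (chr14:68787660-68790487, minus strand), had 994, 915 and 1038 CPM in G1, 734, 681 and 696 in Early_S, 409.6, 365 and 444 in Late_S and 387, 343 and 358 in G2. It fell in both steps and its log2 change in G1 against G2 was 1.44 ± 0.07 (adjusted p = 7.81e-16). The deadenylase-recruiting factor TOB1 had 11.8 ± 2.27 CPM in G1 and 11.3 ± 2.18 in G2, a difference within the spread (log2 0.06 ± 0.33, adjusted p = 0.958).

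Both p53 targets were higher in G1, and over all 24 eligible regions of that list 19 were higher in G1 and 0 lower. PLK2, a polo-like kinase, had 71.0 ± 8.90 CPM in G1 and 32.9 ± 1.93 in G2 (log2 1.11 ± 0.15, adjusted p = 2.76e-06), and BBC3, the BH3-only protein PUMA, had 32.5 ± 6.84 and 5.79 ± 2.03 (log2 2.49 ± 0.32, adjusted p = 7.89e-07). Among G1/S regulators all 3 were higher in G1, among them CDC25A, the phosphatase that activates CDK2, with 101.5, 89.5 and 86.9 CPM in G1 and 56.5, 48.6 and 54.7 in G2 (log2 0.80 ± 0.13, adjusted p = 2.74e-05). The calls of the other G1/S members ended when 1 library was left out: that of CCNE2 without G1 replicate 1 (adjusted p = 0.129), G1 replicate 2 (0.0551), G2 replicate 1 (0.169) or G2 replicate 3 (0.118), and that of E2F6 without G2 replicate 1 (0.0583). Over all 32 eligible regions of the G1/S list, 14 were higher in G1 and 6 lower. Of the 10 ubiquitin ligase adaptors 2 were higher in G1, and over all 68 eligible regions of that list 8 were higher and 3 lower. Of the 2 histone regions 1 was higher in G1, that of HIST1H3D, with 26.1 ± 4.98 CPM in G1 and 10.5 ± 0.876 in G2 (log2 1.32 ± 0.27, adjusted p = 0.000916). Over all 21 eligible histone regions, 12 were higher in G1 and 1 lower.

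FAM46A, in none of the lists, encodes a noncanonical poly(A) polymerase (chr6:81745730-81749694, minus strand) and had 44.5, 54.6 and 52.02 CPM in G1, 26.9, 16.8 and 24.9 in Early_S, 9.95, 9.42 and 8.62 in Late_S and 6.33, 4.37 and 7.84 in G2. The level fell at each step through Late_S, and the log2 change in G1 against G2 was 3.02 ± 0.25 (adjusted p = 4.5e-11). Among the 184 regions in no list, 58 were higher in G1 and none lower (median log2 0.57).

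Regions higher in G2 than in G1 numbered 2, those of NOG and KIF18A. NOG, the BMP antagonist Noggin (chr17:56594923-56595590, plus strand), had 119.5, 133 and 133 CPM in G1, 110.1, 112 and 127 in Early_S, 188, 187 and 177 in Late_S and 159.8, 176 and 150.2 in G2. It rose by 0.66 ± 0.10 on the log2 scale into Late_S (adjusted p = 2.31e-05), the only called rise at that step, while its G1 against G2 change of -0.33 ± 0.10 (adjusted p = 0.0184) ended without G1 replicate 1 (0.125) or G2 replicate 2 (0.129).

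KIF18A (chr11:28020620-28021199, minus strand) had 6.80, 4.12 and 8.19 CPM in G1, 9.76, 8.45 and 6.75 in Early_S, 16.3, 11.6 and 12.04 in Late_S and 13.05, 21.5 and 11.1 in G2. The G1 and G2 libraries did not overlap, with a log2 change of -1.25 ± 0.34 (adjusted p = 0.0102) that ended without G1 replicate 2 (0.0677) or G2 replicate 2 (0.131). This direction is that of its list, in which 78 of 86 eligible regions were lower in G1 and none higher. In the ID, HES and TGF-beta feedback list, which holds NOG, the BMP target ID1 had 670.5 ± 32.9 CPM in G1, 492 ± 39.2 in Early_S, 447 ± 6.37 for Late_S and 512 ± 17.7 for G2, and was higher in G1 than in G2 by 0.39 ± 0.07 on the log2 scale (adjusted p = 0.000147).

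**Figure D5:**
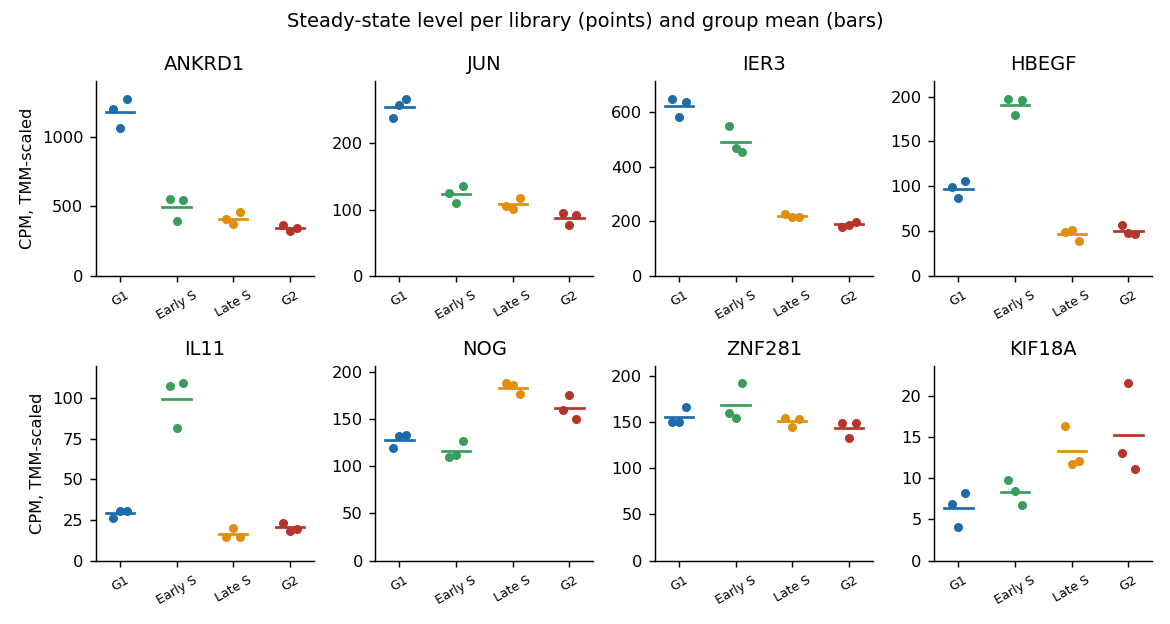
Steady-state level (TMM-scaled CPM) of 8 fastest labelled regions in each of the 12 alkylated libraries (points) with the mean of each phase (short bars). ANKRD1, JUN and IER3 are highest in G1, HBEGF and IL11 in Early_S, NOG in Late_S and KIF18A in G2. In ZNF281 the phases lie close together, with all Early_S libraries above those of G2.

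The nascent level, that is T>C reads as CPM of the T>C reads, was tested over 14755 regions, with all 300 among them. This scale sets the regions against the T>C reads of the same phase, which were fewer in Late_S and G2. The 300 regions took 5.39% of T>C reads in G1, 5.03% in Early_S, 6.27% for Late_S and 6.31% for G2. On this scale 82 regions changed between phases (27.3%, background 7.39%), and 37 of these were highest in G2, 26 in Late_S, 13 in G1 and 6 in Early_S.

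Against G1, 18 nascent levels were higher in Early_S and 8 lower (background 2.58% and 0.996%), and scaling by all reads turned this to 6 higher and 28 lower. The count of 26 fell to 16 without G1 replicate 3, to 16 without Early_S replicate 2 and to 17 without Early_S replicate 3. From Early_S to Late_S 23 were higher and 4 lower (background 0.976% and 1.28%), against 1 higher and 105 lower when scaled by all reads, and the count of 27 fell to 15 without Late_S replicate 2. Between Late_S and G2 none was called by edgeR (background 0.0203% each way), 40 had an unadjusted p under 0.05, and DESeq2 called 7. In G1 against G2 11 were higher and 54 lower (background 2.26% and 2.95%), against 162 higher and 1 lower when scaled by all reads. The median log2 change in G1 against G2 was -0.43 on the T>C scale and 0.82 by all reads, where that of all eligible regions was 0.06 and 1.296. On both scales the median of the 300 regions lay below that of the eligible regions, a difference that the choice of the regions favours.

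Some regions kept a direction on both scales. The nascent level of ANKRD1 was higher in G1 than in G2 by 0.81 ± 0.09 on the log2 scale (adjusted p = 2.62e-07) and by 2.05 ± 0.11 when scaled by all reads. For BBC3 these were 2.18 ± 0.44 (adjusted p = 0.00237) and 3.42 ± 0.44, and for FAM46A 1.88 ± 0.29 (adjusted p = 9.15e-05) and 3.08 ± 0.30. IL11 rose from G1 to Early_S by 2.20 ± 0.19 (adjusted p = 1.44e-08) and by 1.90 ± 0.19. NOG rose from Early_S to Late_S by 1.498 ± 0.11 (adjusted p = 3.41e-09) and by 0.62 ± 0.11 (adjusted p = 0.000119). Others turned with the scale, such as ID1 at -0.77 ± 0.08 (adjusted p = 6.39e-08) and 0.46 ± 0.07 in G1 against G2, and AMOTL2 at -0.80 ± 0.09 (adjusted p = 6.29e-07) and 0.43 ± 0.10.

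Whether the labelled share of a region moved between phases by more or less than that of the bulk of regions was tested in 298 of the 300 regions and 14289 in all. The bulk lost labelled share from G1 and Early_S to Late_S and G2. Relative to it, 88 of the 298 moved between the 4 phases (29.5%, background 11.0%). In Late_S and G2 against G1 and Early_S, 50 were higher and 23 lower (background 3.86% and 7.67%), with a median log2 odds ratio of 0.19 against -0.17 in eligible regions. The share in all 4 phases chose the regions, which favours those that keep a high share in Late_S and G2, so these counts are a description and nothing is read from their distance to the background. With both kinds of reads scaled by all reads, so that the bulk is not taken as the reference, 0 were higher and 151 lower, with a median of -1.17 against -1.50.

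AMOTL2 had a share of 90.3%, 89.3% and 89.6% in G1, 89.9%, 90.3% and 88.6% in Early_S, 90.8%, 88.8% and 88.8% in Late_S and 91.8%, 86.8% and 89.8% in G2. The phases overlapped, and against the bulk its log2 odds were higher in Late_S and G2 by 1.32 ± 0.11, which became -0.017 when scaled by all reads. TAF1D, a subunit of the RNA polymerase I factor SL1 (chr11:93738109-93738397, minus strand), had 72.8% ± 0.774, 72.5% ± 4.82, 68.6% ± 1.198 and 69.9% ± 1.63 in G1, Early_S, Late_S and G2. Its log2 odds against the bulk were higher by 1.099 ± 0.12 and became -0.24 when scaled by all reads.

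In the opposite direction, NANP, a sialic acid phosphatase (chr20:25612935-25615924, minus strand), had 91.8%, 90.4% and 94.1% in G1, 96.6%, 94.6% and 98.3% in Early_S, 52.1%, 53.8% and 51.6% in Late_S and 52.2%, 44.0% and 73.6% in G2. Its late libraries all lay below its early ones, and its log2 odds were lower than the bulk by -2.58 ± 0.38. NR3C1, the glucocorticoid receptor (chr5:143277931-143281888, minus strand), had 78.5% ± 1.28 in G1, 91.0% ± 0.452 in Early_S, 56.8% ± 7.02 for Late_S and 55.0% ± 2.92 for G2, a log2 change of -0.91 ± 0.15 against the bulk. C1orf52, ZNF148 and CHIC2 were the other named regions with a lower share, by -2.25 ± 0.36, -1.003 ± 0.18 and -2.80 ± 0.51.

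Regions of the same gene did not always share a high value. Of the 293 genes, 22 had another eligible region and 18 of these had one outside the 300. The largest gap in mean share within a gene had a median of 28.3 percentage points and ran from 8.45 to 63.7, and it was over 50 points in 4 genes. ARID4B, a chromatin protein, had 87.8% at chr1:235166895-235168652 and 24.1% at chr1:235160511-235160647, which is the more 3′ region on the minus strand. DDX5, an RNA helicase, had 69.7% at chr17:64502010-64502428 and 16.8% at its most 3′ region, chr17:64499616-64500326, which held 84110 reads against 3433.

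TRA2B, a splicing regulator, had 81.1% at chr3:185931577-185931771 and 31.5% at the more 3′ region chr3:185915906-185917725. In KMT5B, a histone methyltransferase, and IP6K2, an inositol phosphate kinase, the order was the other way. KMT5B had 82.9% at chr11:68154863-68159171 and 23.1% at the upstream region chr11:68165715-68166973. IP6K2 had 88.4% at chr3:48688003-48688272 and 36.1% at the upstream region chr3:48693448-48694898. The genes CCNL1, CWC25, ENC1, INTS6, IRF1 and RSRC2 each had 2 or more regions among the 300.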

How the data were processed

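QuantSeq libraries of 3′ ends from labelled U2OS cells were deposited as 1 table per library over 68625 regions (hg38, annotation release 90 per the submitters' processing notes), made by the authors with slamdunk 0.2.4, per the file headers. Read counts (all reads, T>C reads, multimapped reads, covered T positions and conversions) are as the authors deposited them. The deposited conversion rates are fractions, the deposited reads CPM values and the T content (other units) are the authors' too, and the mapping settings and the fewest conversions for a T>C read were not given in the sources used here. Counting intervals were not used, since reads without molecular identifiers are not independent molecules.

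From these counts, the labelled share was T>C reads over all reads, and levels were CPM with TMM factors. edgeR 4.0.16 (R 4.3.3) quasi-likelihood tests over all regions passing filterByExpr (count minimum 10, total minimum 15), two-sided with Benjamini-Hochberg adjustment at 0.05, gave every adjusted p and log2 change ± SE. The share test set the T>C reads and the remaining reads of a library in separate columns (24 in all) with the library as a block, each kind with its own TMM factors. On simulated data with 200 changes of 2-fold, 191, 184 and 193 were recovered for the steady-state, nascent and share tests. False calls numbered 9, 10 and 9 in the same order. The simulation gave every region the same fixed spread, which was not estimated from these libraries, and changed only regions above a floor on mean reads. Its counts also cover all changed regions together. They therefore give no recovery rate for the real libraries or for regions with few reads. DESeq2 1.42.0, RLE factors, no filter, the replicate number as a block, scaling of T>C reads by all reads, other rules for the set and leaving out each library were alternatives.

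Deviations of same-numbered libraries of different phases had correlations of -0.0026 to 0.0567 at the steady-state level over 18 pairs of libraries. At the nascent level they were -0.0079 to 0.0565. With 0 above the limit of 0.1, the numbers were not taken to pair the libraries. The steady-state mean was yet 0.0136 against -0.0068 for other numbers, and 10 of 12 libraries lay closest to their own number. Whether a number marks a shared batch was not tested, and the block by number is an alternative. The 300 regions and the gene lists were chosen with earlier results of these data known. Genes named are the first 10 by share, the regions beside the limit, up to 5 per phase by smallest p in the steady-state and nascent tests, up to 3 each way per contrast without overlap of libraries, up to 5 each way in the share test, up to 5 per list by share, 5 genes with the largest gap between regions, and JUN, EGR1, IER2, PLK1 and CCNB1. Names are those of the files. RefSeq held 279 of the 293 under the current symbol and 10 under an older one. Some regions that this rule names are not reported here. Motifs inside the regions were not analysed here.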

Additional observations from a re-analysis of the deposited data

How the results depend on the processing

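Directions of the called steady-state values of named regions were kept in all refits, and 86 of 1404 refits without 1 library and 1 of 468 others lost the call. By value, 27 of the 117 called lost the call in at least 1 refit without 1 library. Among 18 called nascent values of named regions, 7 lost the call without 1 library. Scaling by all reads also ended the call of 7 of the 18. Leaving out 1 library, the number of the 300 regions called at the steady-state level ranged from 122 to 149 between phases, 54 to 85 in Early_S against G1, 36 to 46 in Late_S against Early_S, 0 to 0 in G2 against Late_S and 93 to 114 in G1 against G2. For the nascent level the ranges were 61 to 85, 16 to 31, 15 to 29, 0 to 1 and 44 to 62, and for the labelled share 69 to 99 between phases and 60 to 73 in the late against the early phases. Of the 300 regions, 282 to 290 were taken again.

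DESeq2 called 80 steady-state levels in Late_S against Early_S (43 by edgeR) and 2 in G2 against Late_S. For nascent levels it called 135 between phases, 46 in Early_S against G1, 52 in Late_S against Early_S, 7 in G2 against Late_S and 102 of the 300 in G1 against G2. Scaling T>C reads by all reads gave 175, 106 and 163 nascent calls between phases, in Late_S against Early_S and in G1 against G2, and 151 share calls. Without the filter on low counts 1 nascent level was called in G2 against Late_S. With the replicate number as a block, 152, 86, 49, 0 and 118 steady-state levels were called, 88, 27, 30, 1 and 62 nascent levels, and 91 and 75 shares. The libraries lay closest to their own number in 10 of 12 cases for steady-state and 7 of 12 for nascent levels. Scaling by all reads turned the sign of the share change of ID1 (-0.45), ZFP36L1 (-0.49), NOG (-0.18) and TAF1D (-0.24). That of AMOTL2 became -0.017, close to no change. This scaling does not remove the lower overall share of the late phases. The cause of the shifts was not tested.

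Other rules for the set shared 243 (conversion rate), 298 (No_alk share subtracted), 219 (at least 2000 reads), 240 (at least 500 reads), 287 (pooled libraries) and 295 (multimapped regions left out) of the 300 regions. Regions with few reads had larger standard errors, as given above for the zinc finger list, and what depth did to its calls was not tested.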

Other observations

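The region of HIST1H3D among the 300 (chr6:26195595-26196246), a replication-dependent histone gene whose mRNA normally lacks a poly(A) tail, had a pooled share of 58.0% in G1, against 81.2% for Early_S, 85.3% for Late_S and 77.9% for G2. The second eligible region of this gene (chr6:26196720-26197141), outside the 300, had 57.9% in G1, against 81.9% for Early_S, 51.1% for Late_S and 55.1% for G2. The steady-state level of the first region fell by 1.42 ± 0.28 on the log2 scale from G1 to Early_S (edgeR, adjusted p = 0.000404). By chromosome, the 300 regions made up between 0.971% (chromosome 21, 1 of 103) and 5.14% (chromosome 13, 9 of 175) of eligible regions.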
